A study of Gossypium hirsutum with 63 samples.

Results

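The leaf transcriptome of the medium-heterosis hybrid (M) was set against that of the low-heterosis hybrid (L) in upland cotton. The comparison used 6 of the 63 libraries of the series, 3 biological replicates of M leaf and 3 of L leaf. Each was pooled from young leaves of different field-grown plants at the squaring stage. The labels give the genotype of M as SJ48x51-2 and that of L as SJ48xT-8. Both hybrids had SJ48 (A) as the maternal parent, while the paternal parent was 851-2 (C) for M and DT-8 (D) for L. The names 51-2 and T-8 in the hybrid labels were taken as shortened forms of 851-2 and DT-8, as the crosses are written in the study's text. Leaf libraries of A, C and D, and of the high hybrid H and its paternal line B, served as 15 further references, and flower buds and 1 day post anthesis ovules of M and L were used for side-by-side values. No yield value was used here, so the words medium and low are those of the study.

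Hybrid vigour is the gain of a first-generation hybrid over its inbred parents. In hybrids with a common mother, an expression difference can follow the difference between the fathers, because each hybrid carries 1 paternal copy of each gene. Upland cotton is an allotetraploid, and its gene names carry the subgenome (A or D, not to be confused with the parent lines A and D) and the chromosome, so that Gh_D11G2904 lies on chromosome 11 of the D subgenome. Leaves at squaring feed the developing squares with photosynthate, and cotton leaves also store terpenoids in pigment glands as a defence against insects.

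Expression is given as FPKM, fragments scaled to transcript length and to the mapped fragments of the library. Of 80325 loci, 60031 had more than 0.5 FPKM in at least 1 of the 21 leaf libraries and were tested with limma on log2(FPKM + 1). Calls of higher or lower in M needed a Benjamini-Hochberg adjusted p under 0.05 together with a difference of more than 1 in either direction on the log2 scale. Fold changes on this scale understate the change of genes near or below 1 FPKM. Total FPKM lay between 429981 and 433579 in the 3 M libraries and between 438149 and 449250 in the 3 L libraries. Over the tested genes, Pearson's r between 2 libraries of the same hybrid was 0.919 to 0.933 (6 pairs), and between an M and an L library 0.901 to 0.919 (9 pairs). The labels name biological replicates but no plants, so the p-values cover no spread beyond that of these libraries.

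The labelled pedigrees were checked first with loci that mark a paternal line. A C marker had at least 2 FPKM in all 3 C leaf libraries and at most 0.1 FPKM in all libraries of A and D, and a D marker the reverse. A marker counted as on in a hybrid with at least 0.5 FPKM in all 3 libraries and as off with at most 0.1 FPKM in all 3. Of the 14 C markers, 5 were on and 7 off in M leaf, while 0 were on and 10 off in L leaf. Of the 24 D markers, 5 were on and 13 off in M leaf, whereas 18 were on and 1 off in L leaf. The libraries labelled L thus carried most D markers, while those labelled M carried 5 of each kind. In leaf of hybrid H, which has neither C nor D as a parent, 4 of the C markers and 6 of the D markers were on, and in its paternal line B 5 of each. The count of C markers on in M was therefore close to those in H and B, which do not have C as a parent, but above the 0 in L. However, 4 of the 5 loci on in M had at most 0.0258 FPKM in every B library.

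The C markers split in M. MSTRG.20270 had 5.23, 5.03 and 5.85 FPKM in M, against 0.0531, 0 and 0 FPKM in L, with 16.3, 14.4 and 12.9 FPKM in C. MSTRG.19123 had 0, 0.0607 and 0 FPKM in M and 0.0833, 0 and 0.0418 FPKM in L, with 16.4, 11.4 and 9.54 FPKM in C. Of the 7 C markers that were off in M leaf, 0 were on in M flower buds and 0 in M ovules, while 5 were on in C flower buds and 4 in C ovules. All 5 C markers that were on in M leaf were on in M flower buds and 4 of them in M ovules. The remaining 2 of the 7 varied between libraries of 1 group, as MSTRG.41903 did with 5.19, 0 and 6.09 FPKM in M flower buds, and are weak markers.

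**Figure D1:**
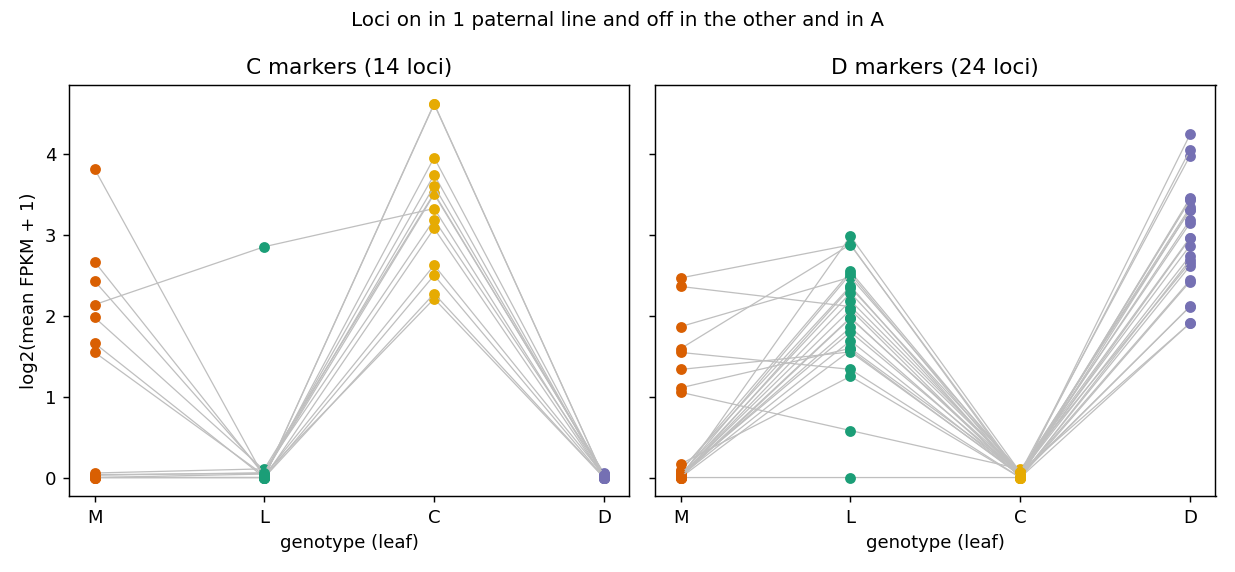
Mean FPKM of 3 leaf libraries, as log2(mean FPKM + 1), for the 14 C markers (left) and the 24 D markers (right) in hybrids M and L and paternal lines C and D, with 1 line per locus. Of the C markers 7 lie at the floor in M, while 1 of the D markers does so in L.

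Further loci, chosen after these values were seen, set M apart from L as well. Of 33 loci that were on in both C and D and off in A, 22 were on and 3 off in M leaf, and 30 were on and 1 off in L leaf. One of them, MSTRG.1631, had 0.047, 0.0334 and 0.0386 FPKM in M and 5.88, 5.95 and 7.46 FPKM in L, with 15.4, 13.8 and 13.9 FPKM in C. Another 14 loci had at least 2 FPKM in all M leaf libraries and at most 0.1 FPKM in all libraries of A and of C, the labelled parents of M. Of these 14, 12 were on in M flower buds and 14 in M ovules, 6 were off in all 18 leaf libraries of the other genotypes, and 0 carried a description. In leaf, 5 of the 14 were on in B, 4 in H, 3 in D and 3 in L. The corresponding count for L with A and D was 7 loci, of which 0 were on in L flower buds and 0 in L ovules, while 2 and 3 were off there. These counts depended on the threshold. At 5 FPKM in place of 2 they were 1 for M and 7 for L, and at 1 FPKM 21 and 11. The M values came from all 3 M libraries, so no comparison without them was possible, and the part of the pedigree in the differences below was not tested.

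Between M and L leaf, 73 genes were higher (0.122% of the 60031 tested) and 138 lower (0.23%) in M. At the thresholds of the study, an unadjusted p under 0.05 with the same fold change, 266 were higher (0.443%) and 547 lower (0.911%). Of the 211 called genes 71 had a description, or 33.7%, against 64.1% of all genes tested. The 3 L libraries were all at 0.1 FPKM or less for 23 of the 73 higher genes, and the 3 M libraries for 43 of the 138 lower genes. The median of all log2 fold changes was -0.003, a value that the scaling of FPKM to the library largely sets.

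Terpene synthases were the gene family with the most calls among the 43 functional lists searched in the descriptions. These enzymes build the carbon skeletons of volatile and stored terpenes from prenyl diphosphates. Of 55 tested members 6 were higher and 2 lower in M, beside 0.122% and 0.23% over all genes. All M libraries lay above all L libraries in 36.4% of the members, against 11.9% of all genes. The median log2 fold change was 0.18 (0.43 with a pseudocount of 0.1). Flavonoid enzymes, which make anthocyanins and other phenolics, had a similar share without overlap, 34.6% of 52, but 0 called by limma and 0 at the thresholds of the study, with sums of 3057.8 to 3351.8 FPKM in M and 2759.7 to 2974.2 FPKM in L. Summed over the family, M had 496.9, 469.7 and 506 FPKM and L had 278.2, 370.1 and 371.9 FPKM. The terpene synthase sums did not overlap in leaf. In flower buds they overlapped, at 164.1, 147.7 and 143.1 FPKM in M and 158.9, 155.6 and 137.9 in L. Ovule sums overlapped, at 81.4, 90.6 and 79.9 in M and 88.6, 104.2 and 106.7 in L. The terpenoid pathway list (614 genes, 7 higher and 4 lower in leaf) had a median of -0.009. Its shares without overlap were 15.6% above and 16% below, beside 11.9% and 13.1% of all genes. Its sums were 6057.9 to 6211.7 FPKM in M and 5205.4 to 5526.5 in L. For terpene synthases, parent leaves had 264.2 to 445 FPKM in A, 239.5 to 258.1 in C and 343.9 to 488.7 in D.

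A pair of neighbouring genes of terpene synthase 21 on chromosome D11 led the family. Gh_D11G2904 had 45.5, 44.5 and 44.6 FPKM in M and 9.51, 14.5 and 14.4 FPKM in L (log2 fold change 1.76, SE 0.19, limma adjusted p = 4.44e-05). The parents had 20.8, 20.4 and 36.1 FPKM in A, 10.1, 14.7 and 13.2 in C and 0.158, 0.179 and 0.0479 in D. Every M library thus stood above every library of its parents, while L stood between A and D. Gh_D11G2902 had 36.6, 35.7 and 36.5 FPKM in M and 6.91, 11.5 and 10.6 FPKM in L (1.83, SE 0.178, adjusted p = 1.28e-05), with the same order of the parents. Gh_D11G2893, another copy nearby, had 20.8, 16.3 and 19.6 FPKM in M and 6.72, 7.27 and 9.43 FPKM in L (1.18, SE 0.195, adjusted p = 0.00566). These similar copies may share reads in the authors' counting, so their values are not independent.

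On the same chromosome a second pair went the other way. Gh_D11G3404, a terpenoid cyclase, had 0.149, 0.206 and 0.211 FPKM in M and 17.7, 23 and 23.4 FPKM in L (-4.22, SE 0.132, adjusted p = 2.95e-12). Its level was 59.1, 52.7 and 39.8 FPKM in D, at most 0.0897 FPKM in A and 0.341 FPKM in C, so L and its paternal line D were the high genotypes among these. Gh_D11G3403, a terpene synthase 21 gene beside it, had 0.148, 0.101 and 0.163 FPKM in M and 2.13, 2.75 and 3.33 FPKM in L (-1.70, SE 0.181, adjusted p = 3.62e-05), with 10.9, 7.73 and 5.62 FPKM in D.

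The other called members lay on other chromosomes. Gh_A04G1296, again terpene synthase 21, had 17.8, 15.2 and 17 FPKM in M and 5.67, 8.12 and 8.3 FPKM in L (1.09, SE 0.224, adjusted p = 0.0295), but the call was lost when any 1 of the 6 libraries was left out (adjusted p up to 0.134). Gh_A04G0923, terpene synthase 03, had 2.35, 2.7 and 3.81 FPKM in M and 0.443, 0.364 and 0.641 FPKM in L (1.40, SE 0.256, adjusted p = 0.0126). That call was lost without M replicate 3 or L replicate 2 (adjusted p up to 0.0762). Gh_A09G0078, of the 1,8-cineole synthase type, had 1.5, 2.05 and 1.99 FPKM in M and 0.153, 0.221 and 0.363 FPKM in L (1.19, SE 0.115, adjusted p = 1.19e-05), with 1.41, 1.17 and 0.878 FPKM in C.

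**Figure D2:**
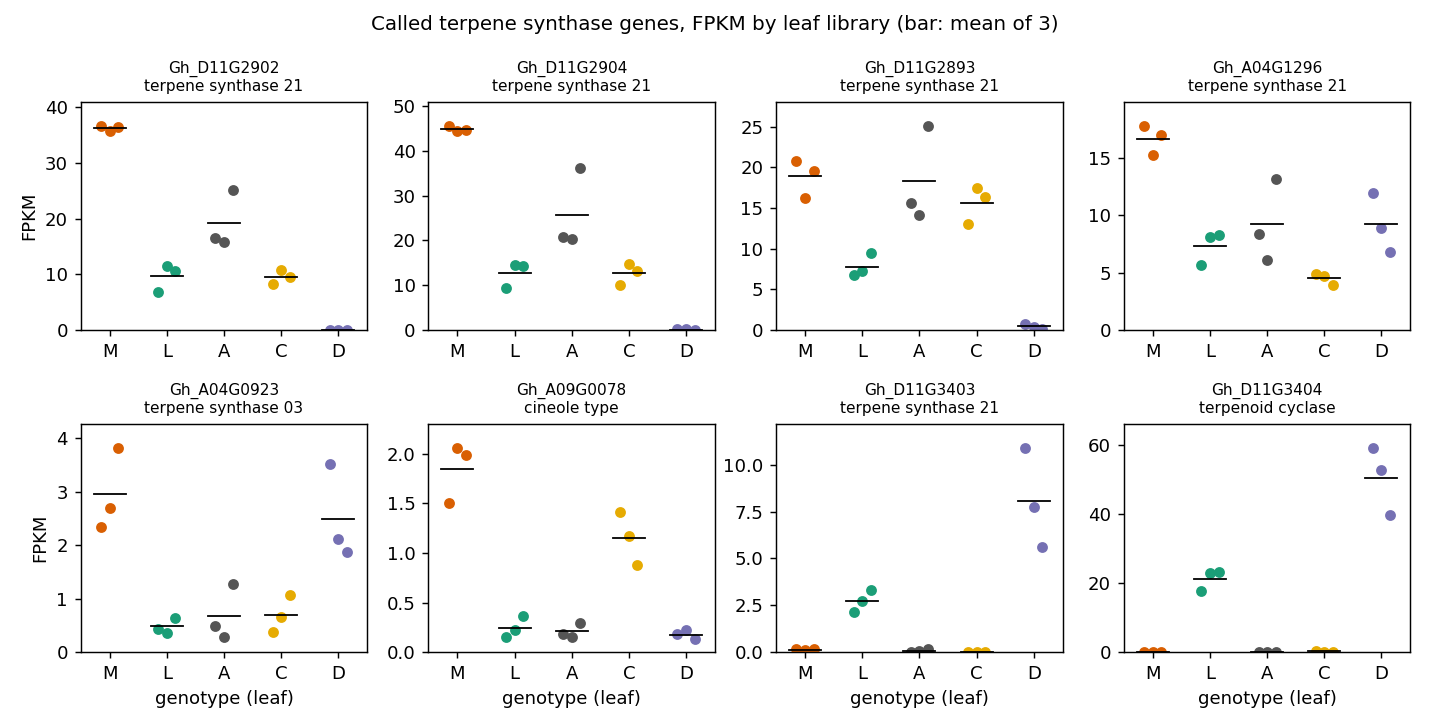
FPKM in each leaf library (points) and the mean of 3 libraries (bars) for the 8 called terpene synthase genes in M, L and the parents A, C and D. The M points lie above the L points in 6 panels and below them in Gh_D11G3403 and Gh_D11G3404, where only L and D are raised among these 5 genotypes.

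Cytochromes P450, which oxidise many terpenes and other specialised metabolites, had 1 higher and 2 lower members of 285, beside 0.122% higher and 0.23% lower over all genes. With so few called members, the genes are given singly and nothing is read from the count. Gh_D13G2116 (family 71B) had 3.49, 3.51 and 3.58 FPKM in M and 0.195, 0.362 and 0.25 FPKM in L (1.84, SE 0.148, adjusted p = 9.11e-07). Gh_D08G1892 (family 76C) had 4.59, 6.07 and 4.95 FPKM in M and 12.6, 33.5 and 33.9 FPKM in L (-2.04, SE 0.316, adjusted p = 0.00305), while A, C and D all lay between 4.48 and 8.04 FPKM. Gh_D11G1440 (family 82C) averaged 0.458 ± 0.172 FPKM in M and 3.02 ± 0.175 in L (SD, n = 3 each, limma adjusted p = 0.00832), a call that was lost without M replicate 1 (adjusted p = 0.0518). The means of A, C and D were 2.75, 2.47 and 2.79 FPKM, with 1 C library at 0.815 FPKM.

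Redox enzymes had 3 higher and 3 lower members of 269, beside the same 0.122% and 0.23% over all genes. Gh_A11G2988, NADPH-dependent thioredoxin reductase A, which reduces cytosolic and mitochondrial thioredoxins, had 37.2, 29.5 and 33.8 FPKM in M and 3.18, 3.36 and 1.69 FPKM in L (3.23, SE 0.255, adjusted p = 7.32e-07). All libraries of A, C and D had at least 13.2 FPKM, so L was the genotype that stood apart. Glutathione peroxidases remove lipid hydroperoxides. Gh_D09G1595 (peroxidase 6) had 10.6, 9.85 and 10.1 FPKM in M and 1.31, 1.75 and 1.31 FPKM in L (2.19, SE 0.311, adjusted p = 0.0012), with means of 2.22, 1.48 and 2.39 FPKM in A, C and D. Here M stood apart. Gh_A09G2408 (peroxidase 2) averaged 30.8 ± 3.68 FPKM in M and 14.3 ± 1.84 in L (SD, n = 3 each, limma adjusted p = 0.0118), a call that did not hold in 3 of 6 fits with 1 library left out (adjusted p up to 0.0657). Among the lower members, monodehydroascorbate reductase 4 (Gh_Sca009869G01), which regenerates ascorbate, averaged 4.02 ± 0.626 FPKM in M and 10.8 ± 3.36 in L (limma adjusted p = 0.041). That call was lost in all 6 such fits.

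Gh_A13G1970 encodes a protein of the NAD(P)-binding Rossmann-fold superfamily. It had 48.8, 56 and 54.3 FPKM in M and 3.75, 3.12 and 3.48 FPKM in L (limma SE 0.184 on the log2 scale, adjusted p = 2.53e-09). The 9 libraries of A, C and D lay at 1.8 to 4.26 FPKM. In flower buds the means were 7.36 FPKM in M and 0.185 FPKM in L, also called, so M was higher in both tissues.

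Among 9 tested genes of proline synthesis, 2 were lower in M and 0 higher, beside 0.23% lower and 0.122% higher over all genes. The list was drawn after the values were seen, so nothing is read from its count. Delta 1-pyrroline-5-carboxylate synthase (P5CS) catalyses the committed step from glutamate to proline, an osmolyte that plants build up under drought and salt. Gh_D01G2158 (P5CS2) had 2.41, 3.17 and 1.68 FPKM in M and 15.9, 22 and 18.1 FPKM in L (-2.53, SE 0.298, adjusted p = 0.000126). Gh_A01G1899 (P5CS2) had 1.43, 2.19 and 1.29 FPKM in M and 5.3, 6.84 and 8.26 FPKM in L (-1.56, SE 0.229, adjusted p = 0.00169). L was the highest of the 5 genotypes in both genes, followed by A, with means of 10.2 and 3.63 FPKM. The A and L libraries overlapped in both genes. The other P5CS genes did not pass the test. For example, Gh_A10G2010 averaged 13.1 FPKM in M and 14.3 FPKM in L, and Gh_D10G2321 11.7 FPKM in M and 10.2 FPKM in L. Both tested genes of P5C reductase, the last enzyme of the pathway, also missed it, with log2 fold changes of -0.61 and -0.44.

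Aldehyde dehydrogenase 7B4 (Gh_A06G1257;Gh_A06G1256), an enzyme that clears reactive aldehydes, had 5.46, 4.85 and 4.75 FPKM in M and 19.3, 20.2 and 19.6 FPKM in L (-1.78, SE 0.12, adjusted p = 8.56e-08). A had 8.2, 5.45 and 5.28 FPKM, while C had 25, 24.3 and 25.6 FPKM and D 21.1, 21.9 and 20.7 FPKM. M therefore lay at the level of A and L near that of D, although C and D differed little. Nuclear factor Y subunit B3 (Gh_A07G1738), a histone-fold transcription factor subunit linked to flowering and heat responses in Arabidopsis, had 5.6, 5.35 and 6.69 FPKM in M and 20.7, 19.8 and 19.7 FPKM in L (-1.62, SE 0.171, adjusted p = 3.5e-05). D had 25.4, 28.1 and 27.5 FPKM, and every library of A and C was below 10 FPKM.

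**Figure D3:**
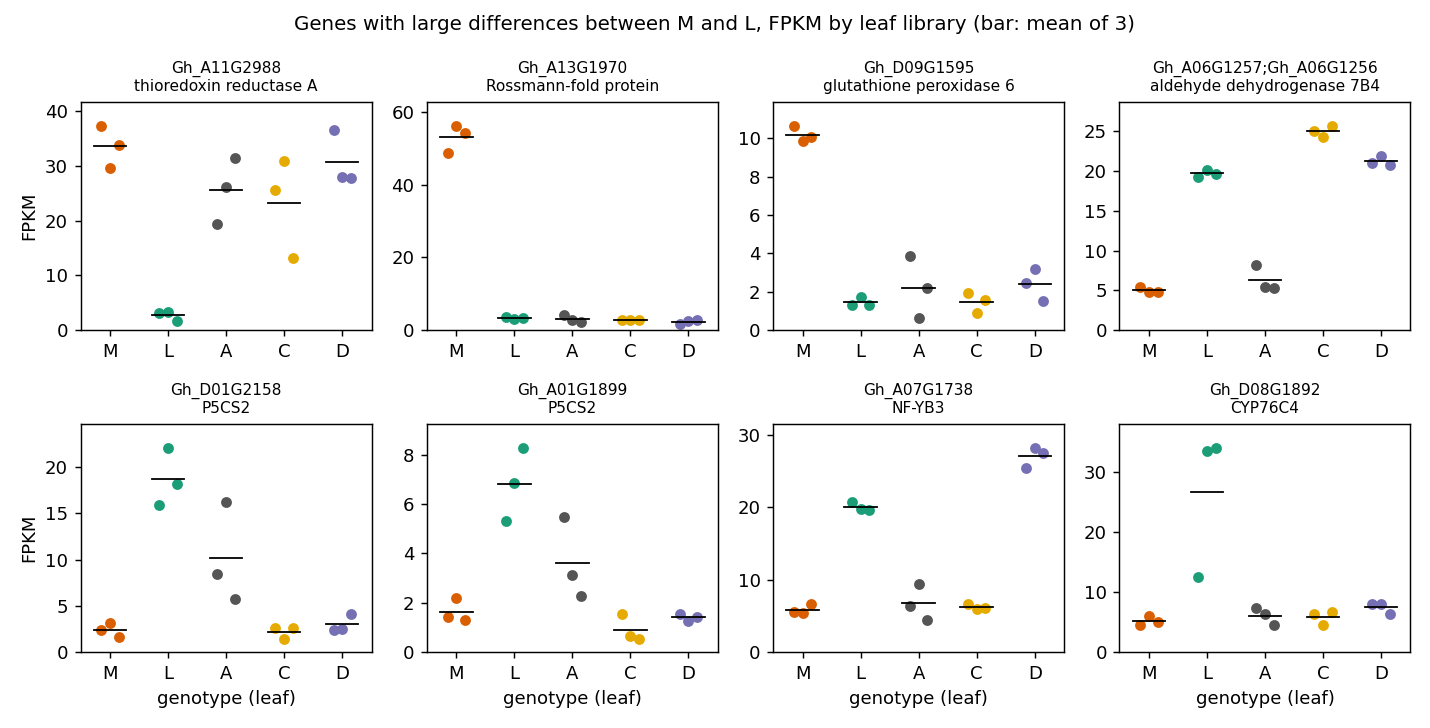
FPKM in each leaf library (points) and the mean of 3 libraries (bars) for 8 genes with large differences between M and L, shown in M, L, A, C and D. Thioredoxin reductase A is low in L alone, Gh_A13G1970 and glutathione peroxidase 6 are high in M alone among these genotypes, and the 4 genes of the lower row are lower in M than in L.

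Single genes of transport, NAD synthesis and the cell wall were also lower in M. The EXS family gene Gh_A09G0220, whose relatives in Arabidopsis export phosphate, had 0.0466, 0.114 and 0.0728 FPKM in M and 9.81, 9.75 and 8.62 FPKM in L (-3.27, SE 0.125, adjusted p = 4.05e-11), with 12.8, 19.3 and 13.6 FPKM in D. Amino acid permease 6 (Gh_D06G0232), an uptake carrier for amino acids, had 18.5, 16.8 and 15.1 FPKM in M and 39.5, 35.3 and 34 FPKM in L (-1.07, SE 0.179, adjusted p = 0.0065). Its call was lost without M replicate 3. Quinolinate phosphoribosyltransferase (Gh_D01G1478), a step of NAD synthesis, had 7.44, 9.28 and 9.16 FPKM in M and 19.4, 18.1 and 19.5 FPKM in L (-1.06, SE 0.115, adjusted p = 4.44e-05), with 1.92, 1.17 and 1.61 FPKM in C. Without M replicate 1 its fold change was -0.97, just short of the fold threshold. Expansin A15 (Gh_A12G1619), a wall-loosening protein, had 0.942, 1.19 and 1.35 FPKM in M and 4.07, 3.66 and 4.04 FPKM in L (-1.19, SE 0.166, adjusted p = 0.001). It was the only called member of 117 expansins and xyloglucan enzymes. Their sums ran the other way, at 1144.5, 1070 and 1071.1 FPKM in M and 877.7, 963.8 and 909.4 FPKM in L. The median log2 fold change of these 117 genes was -0.001.

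Immune receptors of the NB-ARC type, intracellular sensors of pathogen effectors, had 1 higher and 2 lower members of 219, again beside 0.122% and 0.23% over all genes. Gh_D05G3548;Gh_D05G3555 had 3.62, 3.09 and 3.08 FPKM in M and 0.722, 0.813 and 1.05 FPKM in L (1.20, SE 0.113, adjusted p = 8.91e-06). It was almost silent in A, at 0.0236 FPKM or less, and averaged 1.3 FPKM in C and 1.28 FPKM in D. Another gene of D05, Gh_D05G3447, without a description, had 9.15, 8.53 and 7.92 FPKM in M and 0.704, 1.16 and 0.581 FPKM in L (2.40, SE 0.134, adjusted p = 6.73e-09) and was listed at 0 in all 3 A libraries. In both genes M was above each of its labelled parents. Gh_D10G2348, a TIR-type receptor, had at most 0.00795 FPKM in M and 1.41, 0.929 and 0.903 FPKM in L, with 1.62, 1.99 and 1.16 FPKM in D. The fold change was -1.04 (SE 0.117, adjusted p = 6.88e-05) and -0.93 without L replicate 1.

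Some called loci were listed at exactly 0 in 1 hybrid, which in estimated FPKM can also be a failed estimate. The thioredoxin-superfamily gene Gh_D01G2034 was listed at 0 in all 3 M libraries and had 97.5, 87.6 and 92 FPKM in L. The lipid-transfer protein gene Gh_A07G0235 was listed at 0 in M and had 124, 72.7 and 68.1 FPKM in L. Both were listed at 0 in every leaf library of A, B, C, D and H and in the flower buds and ovules of M and L. The pentatricopeptide repeat gene Gh_D05G1002 was listed at 0 in M and had 8.32, 9.02 and 10.7 FPKM in L, but averaged 3.64 FPKM in M flower buds and 3.33 FPKM in L flower buds. Gh_D11G1605, a ribosomal L27e gene, had 38.3, 41.5 and 31.9 FPKM in M and 0.0982, 0.0343 and 0.0676 FPKM in L, a difference whose call was lost in all 6 fits with 1 library left out (adjusted p up to 0.117). In C the same gene had 0.195, 41.4 and 36.5 FPKM, so it varied between replicates of 1 line by as much as between the hybrids.

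Ribosomal protein genes, which build the translation machinery, showed a small difference in many members. Of 959 tested genes 2 were higher and 0 lower in M at the adjusted threshold, beside 0.122% and 0.23% over all genes. At the thresholds of the study 9 were higher and 1 lower, beside 0.443% and 0.911%. With so few called members, nothing is read from these counts. The median log2 fold change was 0.317, against -0.003 over all genes. All M libraries lay above all L libraries in 51.4% of the members, against 11.9% of all genes, and below them in 2.71%, against 13.1%. Summed, the group had 23195.8, 22284.1 and 22710.4 FPKM in M and 18218.5, 17625.4 and 18874.6 FPKM in L. The lines had 15602.5 to 20678.8 FPKM in A, 20862.5 to 25948.9 in C and 23119.3 to 26165.7 in D, so L lay below its paternal line and within the range of A. An exact permutation test of 3 against 3 libraries cannot give a two-sided p below 0.1, and no test of the sum was made.

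The called member that held under every left-out library was Gh_Sca004802G03, an L38e gene, with 33.7, 28.3 and 30.8 FPKM in M and 12.2, 11.5 and 12.9 FPKM in L (1.28, SE 0.196, adjusted p = 0.00272). Split by a chloroplast term after the values were seen, the 904 ribosomal genes without the term had a median of 0.33, and the 55 genes with it one of 0.11. The sums of the 55 genes ran the other way, at 1112.8, 1400.1 and 1361.6 FPKM in M and 1675.4, 1514.3 and 1554.5 FPKM in L. In flower buds the median over ribosomal genes was -0.056, and the sums overlapped, at 16216.5, 18307 and 17825.2 FPKM in M and 20032.9, 16572.2 and 19192.1 FPKM in L.

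Some photosynthesis groups had sums that were lower in M in every library. Photosystem and light-harvesting genes, which capture light, had 0 of 181 members called by limma and a median log2 fold change of -0.141. At the thresholds of the study 0 were higher and 7 lower, beside 0.443% and 0.911% over all genes. All M libraries lay above all L libraries in 3.87% of the members and below them in 20.4%, against 11.9% and 13.1% of all genes. The photosystem sums were 11179, 13347.7 and 13940.9 FPKM in M and 17287, 14988.2 and 14016.1 FPKM in L, with no overlap but a narrow gap between M replicate 3 and L replicate 3. Calvin cycle genes, which fix carbon dioxide, had 0 of 73 called (1 lower at the thresholds of the study), a median of -0.168 and sums of 10420.8, 13537.8 and 13831.2 FPKM in M and 19480.6, 15643.6 and 14053.7 FPKM in L. Without overlap, 13.7% of the Calvin cycle genes lay above and 28.8% below. Related lists were mixed. The photosynthesis pathway list (221 genes, 1 called lower, 7 lower at the thresholds of the study) had a median of -0.13, with 3.17% of members above and 18.6% below without overlap. Its sums did not overlap, at 11815 to 14746.9 FPKM in M and 14844.5 to 18353.6 FPKM in L. Genes with a chloroplast term (5086) had sums of 63721.2 to 70043 FPKM in M and 71075.5 to 82102.9 FPKM in L, but a median of -0.008. The pathway list of carbon fixation (310 genes, 0 called, 4 lower at the thresholds of the study) had a median of 0. Without overlap, 16.8% of its members lay above and 19% below, beside the 11.9% and 13.1% of all genes. Its sums overlapped, at 10654.4 to 12151.8 FPKM in M and 12138.9 to 16051.2 FPKM in L. Chlorophyll synthesis genes (31 genes, 0 called, 2 lower at the thresholds of the study) had a median of 0.071 and overlapping sums, with 12.9% of members above and 3.23% below without overlap. The 3 libraries of A alone ranged from 8906.9 to 22343.2 FPKM in the Calvin cycle, more than the distance between the hybrids. Genes used as markers of leaf mesophyll had 0 of 52 called (2 lower at the thresholds of the study) and sums that overlapped, at 9085.2, 10859.3 and 10950.6 FPKM in M and 14893.2, 11351.2 and 10631 FPKM in L. Of these markers, 1.92% lay above and 23.1% below without overlap. In a tissue sample, fewer cells of a type and less RNA per cell cannot be told apart.

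**Figure D4:**
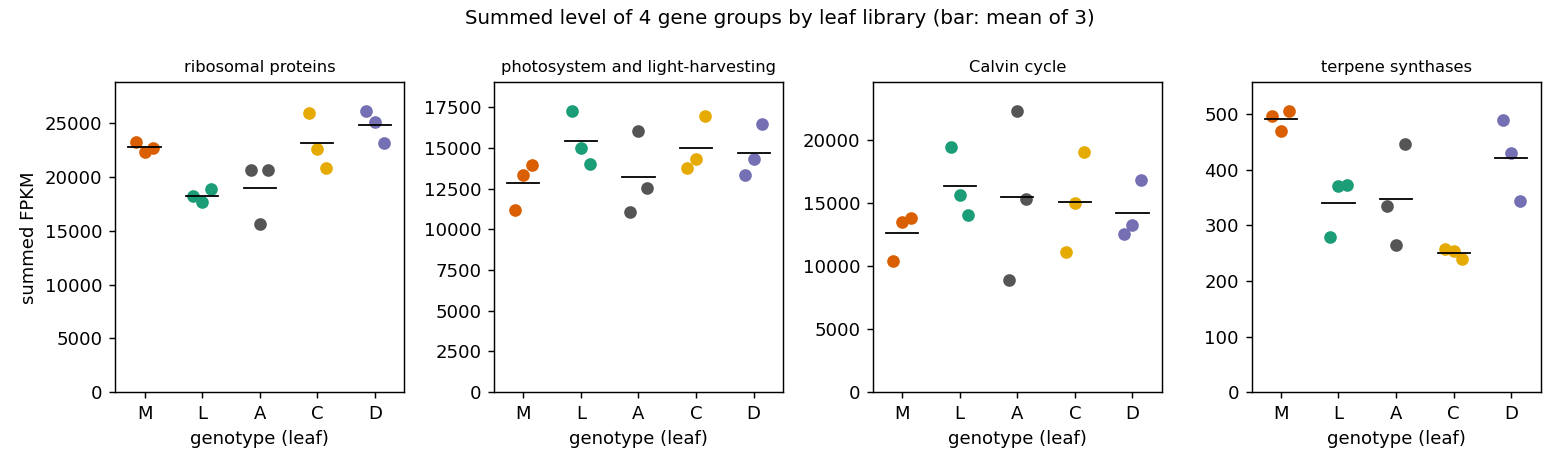
Summed FPKM of ribosomal protein, photosystem and light-harvesting, Calvin cycle and terpene synthase genes in each leaf library (points) with the mean of 3 (bars) for M, L, A, C and D. M lies above L in ribosomal proteins and terpene synthases and below L in both photosynthesis groups, where A, C and D spread widely.

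Marker genes gave 0 calls by limma in all 9 lists, with 0 higher and at most 2 lower per list at the thresholds of the study. Besides mesophyll, their summed levels overlapped between M and L for guard cell (14 genes, 47.9 to 52.4 FPKM in M and 43 to 50.7 in L), trichome and epidermis (80 genes, 536.1 to 678.9 in M and 473.2 to 625 in L), meristem and young leaf (109 genes, 819.8 to 872 in M and 714.1 to 907.6 in L) and pollen and anther genes (58 genes, 438.6 to 977 in M and 457.1 to 821.3 in L). They did not overlap for xylem (30 genes, 264.3 to 279.8 in M and 225.1 to 257.6 in L), phloem (34 genes, 68.2 to 71.3 in M and 71.4 to 97.3 in L), floral organ (68 genes, 254.3 to 256.7 in M and 301.8 to 330.8 in L) and senescence genes (48 genes, 159.6 to 170 in M and 197.8 to 218.3 in L). The part of cell composition in the differences above was not tested.

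Most regulatory and hormone lists showed no called gene. Of the 43 functional lists drawn from descriptions, 29 had none. WRKY factors (168 genes), which act in defence signalling, and auxin (271), ethylene (38), jasmonate (66), abscisic acid (87), cytokinin (86) and brassinosteroid genes (67) had 0 calls by limma, and also 0 at the thresholds of the study. Sugar transporters (147 genes) and aquaporins (86 genes) had 0 by both rules as well. MYB factors (293 genes) had 0 calls, with 1 higher and 3 lower at the thresholds of the study, and the circadian clock list (54 genes) 0 calls, with 1 lower. Several of these lists nevertheless had sums without overlap. M was below L for cytokinin genes (418.9 to 438.1 FPKM in M and 496.6 to 516.7 in L), abscisic acid genes (468.4 to 492.8 in M and 509.4 to 556.8 in L), clock genes (264.9 to 269.5 in M and 299.3 to 315.6 in L) and sugar transporters (424.8 to 450.9 in M and 477.2 to 487.6 in L). M was above L for aquaporins (1742.9 to 1822.9 FPKM in M and 1526.3 to 1675.4 in L). Of the clock genes 22.2% were lower in every M library and 1.85% higher, beside 13.1% and 11.9% of all genes. Heat shock genes had 1 called member of 425: Gh_D03G1421, an HSP90 chaperone, with 3.44, 3.26 and 2.51 FPKM in M and 0.412, 0.583 and 0.398 FPKM in L (1.47, SE 0.274, adjusted p = 0.0152), a call lost in 4 of 6 fits with 1 library left out (adjusted p up to 0.0804).

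The difference between the hybrids was then set beside that between their fathers, for which other libraries were compared. Both contrasts came from 1 model of the leaf libraries and share the estimate of spread of each gene. The overlaps below are therefore not between independent tests. In C against D leaf, 172 genes were higher (0.287%) and 185 lower (0.308%) in C. At the thresholds of the study these shares were 0.673% and 0.693%. Of the 73 genes higher in M, 20 were also higher in C than in D and 0 lower, which is 27.4% of the M-higher genes and 11.6% of the C-higher genes. Of the 138 genes lower in M, 55 were also lower in C and 1 higher, or 39.9% of the M-lower and 29.7% of the C-lower genes. Over all 60031 genes, Pearson's r between M minus L and C minus D was 0.018, given as a description only.

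If a hybrid lay midway between its parents on the log scale, M minus L would equal 0.5 times C minus D. Departures from this value were called for 111 genes upward (0.185%) and 101 downward (0.168%), or 0.678% and 1.04% at the thresholds of the study. They included 51 of the 73 genes higher in M and 59 of the 138 lower in M, but the departure uses the same M and L values that chose these genes, so a called gene with little difference between the fathers departs largely by construction. Midway on the log scale is also not midway in FPKM. A gene at the mean FPKM of its parents can therefore be called as well, above all where 1 father is on and the other parents are off. Gh_D11G3404, which was high only in L and D, is such a case, with its departure called in all 12 fits with 1 library left out (-1.67 to -1.46). The counts are a description only. Of the 73, 18 followed the fathers without a called departure, 49 departed without a called difference between the fathers, 2 did both and 4 neither. Of the 138, the same counts were 49, 53, 6 and 30. Without M replicate 1 the departures numbered 135 in place of 212.

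The largest departures upward included loci without a description. Gh_D06G0237 had 13.2, 13.2 and 10.7 FPKM in M and at most 0.0172 FPKM in L, 0.0465 FPKM in C and 0.0225 FPKM in D (departure 3.71, adjusted p = 1.77e-12). MSTRG.49675 had 32.5, 30.4 and 18.9 FPKM in M and 1.08, 2.5 and 0.911 FPKM in L, with 6.52, 4.26 and 3.09 FPKM in C (departure 3.52, adjusted p = 1.56e-06). Thioredoxin reductase A (Gh_A11G2988), with a departure of 3.46 (adjusted p = 2.74e-06), belonged to the same group because of its low level in L. Downward, MSTRG.1631, described above among the loci of both fathers, had a departure of -2.91 (adjusted p = 4.3e-08). The D11 terpene synthases Gh_D11G2902 and Gh_D11G2904 had no called departure (0.19 and -0.04, adjusted p = 0.711 and 0.968). This contrast sets the hybrids against each other, so similar shifts of both from their own parents cancel in it. In both genes every M library lay above every library of A and C. The missing call therefore does not place M midway between its parents.

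**Figure D5:**
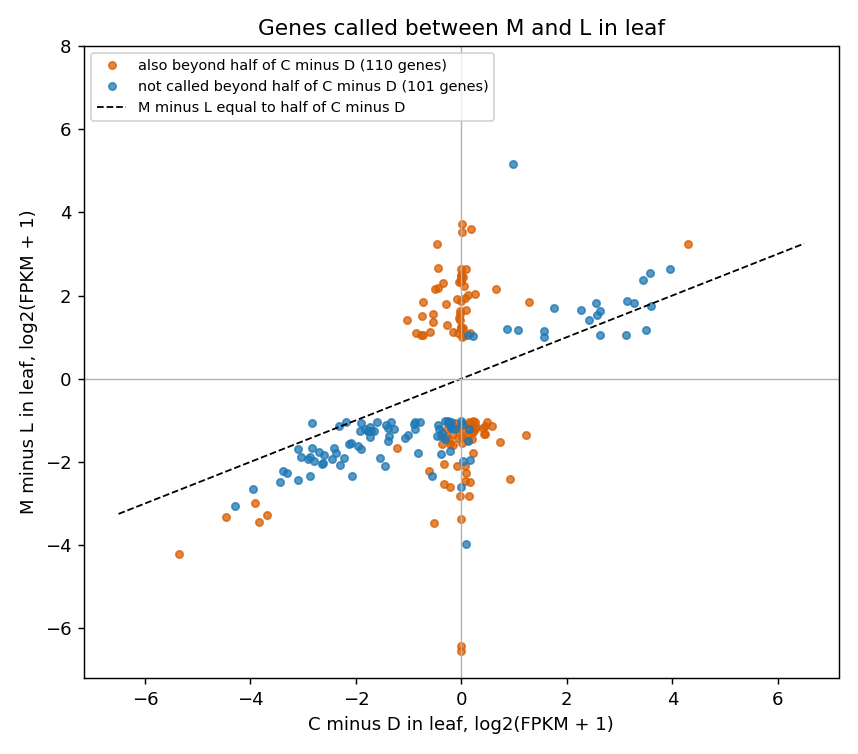
M minus L against C minus D in leaf, as differences of log2(FPKM + 1), for the 211 genes called between M and L. The dashed line is M minus L equal to 0.5 times C minus D, and colours mark the 110 genes called beyond it and the 101 not called; as all genes shown were chosen for M minus L, those near a C minus D of 0 lie off the line by construction.

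The leaf calls were partly shared with other organs of the same hybrids, which are other libraries. In flower buds, 63 genes were higher (0.0987%) and 54 lower (0.0846%) in M than in L, or 0.367% and 0.439% at the thresholds of the study. Of the 73 genes higher in M leaf, 72 were tested in buds and 40 were higher there too, or 55.6% of the leaf and 63.5% of the bud list. Of the 138 genes lower in M leaf, 136 were tested in buds and 40 were lower, or 29.4% of the leaf and 74.1% of the bud list. No gene was called in opposite directions in leaf and buds. The difference in leaf was itself tested against that in buds, and 12 genes departed upward (0.0179%) and 38 downward (0.0568%), or 0.676% and 1.35% at the thresholds of the study. The total of 50 was 33 with a pseudocount of 0.1, 139 with TMM rescaling, 202 with the compared groups alone and 24 (without M leaf replicate 3) to 90 (without L bud replicate 3) with 1 library left out. In ovules, where the number of calls depended on single L libraries, 45 of 67 higher and 46 of 112 lower leaf genes were called the same way among 639 higher (1.08%) and 1225 lower genes (2.06%), or 1.58% and 3.46% at the thresholds of the study. Without L ovule replicates 2 and 3 the counts were 38 and 43, among 125 and 147 called genes, but that fit holds 1 L library, which is assumed to vary like the other genotypes, and gives no check of the L spread.

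Genes called in all 3 organs numbered 35 higher and 32 lower. They included CW7 (Gh_D06G2309), with 3.38, 3.16 and 3.01 FPKM in M leaf and 0.418, 0.25 and 0.357 FPKM in L leaf (1.64, SE 0.112, adjusted p = 9.86e-08), and the hAT-type zinc finger gene Gh_D02G0127, with 2.32, 2.11 and 2.52 FPKM in M and 0.0676, 0.158 and 0.149 FPKM in L (1.56, SE 0.0863, adjusted p = 6.51e-09). In both genes A, C and D were at the level of L. The EXS gene Gh_A09G0220 and aldehyde dehydrogenase 7B4 belonged to the genes lower in M in all 3 organs.

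Only 29 of the 73 higher and 62 of the 138 lower genes carry a chromosome in their name, and the others were not placed. Among the 45642 tested loci that do, 13 of 22422 in the A subgenome were higher and 26 lower, and 16 of 23220 in the D subgenome were higher and 36 lower. Shares ran from 0% on A08 to 0.441% on D06. No run of 50 neighbouring tested loci held more than 3 called genes, a number reached on D05, D06 and D11, where the D11 run consists of the terpene synthases Gh_D11G2893, Gh_D11G2902 and Gh_D11G2904. On D06 the 3 genes were amino acid permease 6 (Gh_D06G0232), Gh_D06G0237 and Gh_D06G0235, a P-loop hydrolase with 2.96, 3.61 and 3.87 FPKM in M and 1.2, 1.07 and 1.34 FPKM in L (1.02, SE 0.182, adjusted p = 0.0104), whose call was lost without M replicate 2 or 3 or L replicate 2.

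Candidate genes that had been chosen for quantitative PCR were looked up last. The paper reports their differential expression in flower buds of the high hybrid or in ovules of the low hybrid. They were not put forward for leaf or for M against L, so the values below are no test of that choice. Of these 9 genes, 8 passed the filter in leaf and 0 were called by limma, with 0 also at an unadjusted p under 0.05 with the same fold change. Their log2 fold changes ran from -0.26 to 0.86. Gh_A03G1024, of the BZR1 family of brassinosteroid regulators, had 13.4, 12.1 and 1.37 FPKM in M and 1.87, 15.8 and 0.556 FPKM in L (0.86, SE 0.784, adjusted p = 0.663), so replicates of 1 hybrid differed more than the hybrids did.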

How the data were processed

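Paired-end reads of 63 libraries (7 genotypes, 3 tissues, 3 replicates) were trimmed with Cutadapt, aligned with HISAT, assembled with StringTie and quantified with Ballgown by the authors, who deposited FPKM per locus; no source used here names the genome build. FPKM were used as deposited, and 21 further columns of FPKM that match no sample were not used. The files hold no read totals, and the study's overall range of reads per library was not used, so counting error was not computed. The 66191 gene names matched 0 entries of the RefSeq table. Contrasts were fitted with limma 3.58.1 (R 4.3.3, trend, robust) on log2(FPKM + 1), in 1 model per tissue over 7 genotypes, with genes above 0.5 FPKM in at least 1 library. On simulated data with 60031 genes, 88 of 100 changes of 1.5 and 96 of 100 of 2.5 (log2) were recovered in M against L. Both sizes were placed in 1 run, which gave 6 false calls in all. The changed genes were drawn only from genes above a minimum mean expression. Recovery was not split by expression level, so these rates are not carried over to genes near the floor.

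The members and the 76 gene lists (43 functional and 9 marker lists from descriptions, 24 from pathways and terms) were chosen with earlier results of these data known. Named genes are the 12 largest described rises and falls without overlap, the 3 largest called members per list, 5 markers per paternal line, 5 departures per direction, the called genes of the densest windows of 50 loci and 9 candidates; others, such as Gh_A07G1738, P5CS and further terpene synthase genes, were picked after their values were seen. Alternatives were another pseudocount (0.1), other filters, TMM rescaling, fits on the groups compared, a replicate block and libraries left out. Summaries used Python 3.11.15.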

Additional observations from a re-analysis of the deposited data

Results flagged for a closer look

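For 10 named genes the difference between M and L in leaf departed from that in flower buds by the test of the difference itself, called for 12 genes upward (0.0179% of 66880) and 38 downward (0.0568%) in all. That total of 50 ran from 24 to 202 over the alternatives run at the adjusted threshold. The values are leaf minus flower buds on the log2 scale, by limma with adjusted p-values. Upward, thioredoxin reductase A (Gh_A11G2988) differed by 2.48 (adjusted p = 0.0437), since flower buds had 35.3 FPKM in M and 26.1 FPKM in L, and the P450 gene Gh_D13G2116 by 1.78 (adjusted p = 4.15e-08). Downward, the terpenoid cyclase Gh_D11G3404 differed by -3.79 (adjusted p = 8.13e-11) and its neighbour Gh_D11G3403 by -1.66 (adjusted p = 9.72e-05). The P5CS2 genes Gh_D01G2158 and Gh_A01G1899 differed by -2.64 (adjusted p = 0.00146) and -1.60 (adjusted p = 0.0123), with flower bud means of 0.825 FPKM in M and 0.739 FPKM in L for the first. NF-YB3 (Gh_A07G1738) differed by -1.68 (adjusted p = 0.00815), with flower bud means of 2.72 FPKM in M and 2.46 FPKM in L. The lipid-transfer gene Gh_A07G0235, listed at 0 in both hybrids in flower buds, differed by -6.43 (adjusted p = 1.09e-05), a fitted value that is no bound, since M leaf was listed at 0 too. The receptor gene Gh_D10G2348 differed by -1.05 (adjusted p = 1.09e-05) and Gh_D04G0269, a gene of the photosynthesis pathway list without a description, by -1.28 (adjusted p = 0.00862). Gh_D04G0269 had 12, 16.9 and 15.7 FPKM in M leaf and 61.9, 46.1 and 53.2 FPKM in L leaf.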

How the results depend on the processing

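Of 66 named called genes, 40 kept their call in all 13 alternative settings in which they were tested, and 0 of these 66 changed sign. The uncalled histone gene Gh_A08G2114;Gh_A08G2115 ranged from -1.98 without L replicate 3 to 0.10 without L replicate 2. At the thresholds of the study the counts were 266 higher and 547 lower for M against L in leaf, 820 for C against D, 1030 for the departures, 514 in flower buds, 2992 in ovule and 1358 for leaf against flower buds, and the densest window held 5 genes. For leaf against flower buds (50 genes) a pseudocount of 0.1 gave 33, a filter of 1 FPKM in every library of 1 compared group 103, TMM rescaling 139 and the compared groups alone 202. In ovule (1864 genes) the compared groups alone gave 121, and leaving out L replicates 2 and 3 gave 272, with the lone L library assumed to vary like the other genotypes. The terpene synthase median was 0.43 with a pseudocount of 0.1. With 1 library left out, the ranges were 68 to 78 higher and 104 to 153 lower genes for M against L in leaf, 350 to 379 for C against D, 135 (without M replicate 1) to 270 for the departures, 115 to 125 in flower buds, 410 (without L replicate 2) to 5675 (without L replicate 1) in ovule, 24 (without M leaf replicate 3) to 90 (without L bud replicate 3) for leaf against flower buds, 6 to 8 called terpene synthases and 1 to 2 ribosomal genes. Totals do not show which genes stayed. Of the 73 genes higher in M leaf, 58 to 62 kept their call in each fit with 1 library left out, and of the 138 lower genes 90 to 101. With the compared groups alone, 62 and 98 did. The cause of these shifts was not tested.

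Replicate numbers do not pair the samples: deviations of same-numbered M and L leaf libraries correlated at 0.0121, -0.02 and 0.0153. A replicate block gave 70 higher and 129 lower genes and 1 called ribosomal gene. At 1 and 5 FPKM in place of 2, the share of C markers on in M was 28.6% and 30%, against 35.7%, and of D markers on in L 83.3% and 69.2%, against 75%.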
